A study of Mus musculus with 12 samples.

Results

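Amino acid transporters are membrane proteins that carry amino acids into and out of cells, and 10 of their genes were followed here in mouse preosteoblasts: Slc3a2, Slc7a5, Slc7a6, Slc7a1, Slc7a3, Slc1a4, Slc1a5, Slc38a1, Slc38a2 and Slc6a9. They were taken by name from the 52654 genes used, after the Ensembl identifiers, with the version removed, were matched to GENCODE M21 symbols. Of the 10, 8 passed edgeR's filter on low counts and were tested, and Slc7a3 and Slc38a1 did not pass. The rule takes them by name alone, but the names were put together with earlier results of these libraries known.

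Total RNA was sequenced from 12 libraries of MC3T3-E1 subclone 14 cells, a clonal line from mouse calvaria, 3 libraries in each of 4 groups. The isolated control group grew alone on control titanium discs, and the isolated nanotopography group grew alone on titanium with nanotopography. In the co-culture control and co-culture nanotopography groups, cells on the same surfaces shared medium, through inserts with 0.4 µm pores, with osteoclasts that 50 ng/mL RANKL had driven from RAW 264.7 macrophages, for 2 days after 5 days apart. The medium of all groups was osteogenic, with ascorbic acid at 5 µg/mL and β-glycerophosphate at 7 mM, and RNA was taken on day 7. RANKL and inserts are recorded for the co-cultures only, so the osteoclasts, the RANKL, the insert and the added cells cannot be told apart, and "co-culture" below means all of them. The series names biological triplicates and no further source, so p-values measure the spread between these samples.

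Slc3a2 encodes the heavy chain 4F2hc (CD98), which brings light chains of the Slc7 family to the plasma membrane; the light chain makes the exchanger specific. Sodium-coupled carriers such as Slc38a2 and Slc6a9 load the cell with small neutral amino acids, and exchangers such as Slc7a5, Slc1a4 and Slc1a5 trade these for others, so the carriers act in series. Osteoblasts draw heavily on this supply because collagen is rich in glycine and proline, and several of the genes are known targets of ATF4, a transcription factor of the amino acid and stress response that osteoblast maturation requires.

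Total counts ran from 5866842 to 9207831 per library, and levels below are CPM on TMM-scaled totals. All 10 osteoblast markers examined had counts, with a summed CPM of 103200 to 116400 in isolated control, 108300 to 112600 in isolated nanotopography, 92270 to 107900 in co-culture control and 60360 to 69130 in co-culture nanotopography libraries. Col1a1, Col1a2, Sparc and Ibsp made up nearly all of these sums, so the other markers barely enter them. Runx2 had means of 335 CPM in isolated and 340 CPM in co-culture nanotopography libraries. Of 20 macrophage and osteoclast markers, 10 had counts in isolated control, 11 in isolated nanotopography, 16 in co-culture control and 19 in co-culture nanotopography, with Calcr at 0 in every group. Their summed CPM without Ctsk and Mmp9, which the isolated cells also express, was 3.69 to 7.21, 4.84 to 6.05 and 4.21 to 11.6 in the first 3 groups and 19, 40.7 and 52.5 in co-culture nanotopography libraries 1, 2 and 3. Mitochondrial ribosomal RNA took 8.66 to 15.8% of counts in co-culture nanotopography and 4.52 to 9.80% elsewhere. The co-culture nanotopography libraries also held reads of lower GC content, 45.9 to 47.7% by gene model weighted by counts, against 48.7 to 51.5% elsewhere. In co-culture against isolated cells on nanotopography the median log2 fold change was 1.01 for genes under 40% GC and -1.34 for genes over 60% GC, with 0.00 over all genes. The isolated nanotopography libraries were shifted the other way, at 49.8 to 51.5% against 48.7 to 50.0% in isolated control. Nanotopography in isolated cells gave medians of -0.57 under 40% GC and 0.29 over 60% GC, so both nanotopography groups enter the 1.01 and -1.34. For the transporters the comparisons with nanotopography are therefore given a second time after a fit that takes out how counts follow GC content and length within each library, called GC-adjusted below. The part of these shifts in the transporter values was not tested beyond that adjustment, and in bulk RNA fewer cells of a type and less RNA per cell cannot be told apart. In co-culture on nanotopography the 10 osteoblast markers had a median log2 fold change of -0.52, and -0.05 GC-adjusted. At an adjusted p below 0.05, 0 were higher and 7 lower as fitted, beside 28.7% and 30.4% of all tested genes. GC-adjusted, 2 were higher and 3 lower, beside 18.7% and 20.8%.

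Slc3a2 and Slc7a1 were the 2 transporters called higher in co-culture on both surfaces as fitted, and Slc1a4 held the one match to a searched motif, so the RefSeq promoters of these 3 (build GRCm38.p6, minus strand, written 5′ to 3′ on the strand of the gene) are shown. After GC adjustment Slc7a5 and Slc38a2 were also called higher on both surfaces. The table of promoters held 10 entries for 6 of the 10 transporters. To this end 2 letter patterns were searched on both strands in the window from 250 bases before to 50 after each start: TGATGNAA, the core of the element bound by CEBP and ATF4 dimers, and CACGTG, the E-box bound by MYC and others. TGATGNAA was in 3.97% of the 32851 promoters of the same length and in 1 of the 6 transporters, and CACGTG was in 7.15% and in 0 of the 6. The percentages count promoters, while a transporter counts if any of its promoters matches, so they are not like units. None of the stretches shown holds CACGTG, and capitals mark the match in Slc1a4, which lies on the opposite strand, ends the printed stretch and crosses the start from base -4 to base 4. The first stretch is chr19:8713898-8714147, the 250 bases before a RefSeq start of Slc3a2 that lies inside the GENCODE M21 gene; the second is chr5:148399905-148400154, the 250 bases before Slc7a1; the third is chr11:20332710-20332963, the 250 bases before Slc1a4 and the first 4 after its start. Their first 250 bases hold 53.6%, 62.4% and 64.8% G and C. A match is a description of letters, not a site shown to be bound. Sequence outside the window, such as introns, was not searched, so the lack of a match says nothing about it.
Slc3a2: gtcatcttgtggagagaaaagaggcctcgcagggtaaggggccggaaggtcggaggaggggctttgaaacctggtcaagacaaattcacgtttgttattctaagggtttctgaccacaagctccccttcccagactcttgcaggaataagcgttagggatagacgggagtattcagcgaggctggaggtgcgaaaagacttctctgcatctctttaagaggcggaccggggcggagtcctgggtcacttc
Slc7a1: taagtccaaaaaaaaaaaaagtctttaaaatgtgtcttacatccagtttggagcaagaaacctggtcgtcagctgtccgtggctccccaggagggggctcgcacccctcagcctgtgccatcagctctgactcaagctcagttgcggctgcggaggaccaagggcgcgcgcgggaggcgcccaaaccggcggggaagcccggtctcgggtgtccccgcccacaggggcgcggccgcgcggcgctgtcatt
Slc1a4: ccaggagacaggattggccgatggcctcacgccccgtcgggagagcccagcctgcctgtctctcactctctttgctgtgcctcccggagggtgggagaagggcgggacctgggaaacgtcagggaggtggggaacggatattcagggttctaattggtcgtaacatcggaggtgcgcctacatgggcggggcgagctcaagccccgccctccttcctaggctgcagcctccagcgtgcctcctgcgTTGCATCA

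The order of transcript levels was compared per kilobase of exon (FPKM), since longer transcripts gather more reads. In isolated control libraries the heavy chain Slc3a2 stood first at 34.0 FPKM, followed by the proline and glutamine carrier Slc38a2 at 28.3 and the light chain Slc7a5 at 20.0, with no overlap between neighbours in the 3 libraries. Slc1a4 at 12.3 and Slc7a6 at 11.3 FPKM overlapped, as did Slc1a5 at 9.89 and Slc7a1 at 9.55, and the glycine carrier Slc6a9 stood at 1.80. In co-culture control libraries the same 3 genes led, with Slc3a2 at 96.1, Slc38a2 at 32.7 and Slc7a5 at 28.6 FPKM, while Slc7a1 (13.5) and Slc1a4 (13.2) overlapped and Slc7a6 stood below them at 9.18. In co-culture nanotopography libraries Slc3a2 (51.2 FPKM, 41.6 to 56.6) overlapped Slc38a2 (41.6, 39.1 to 44.4), and Slc7a5 stood at 15.6. Lengths of the longest annotated transcript, an added alternative, gave 42.7 FPKM for Slc3a2 and 40.9 for Slc38a2 in isolated control libraries, which overlapped, and raised Slc7a1 there to 15.3.

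**Figure D1:**
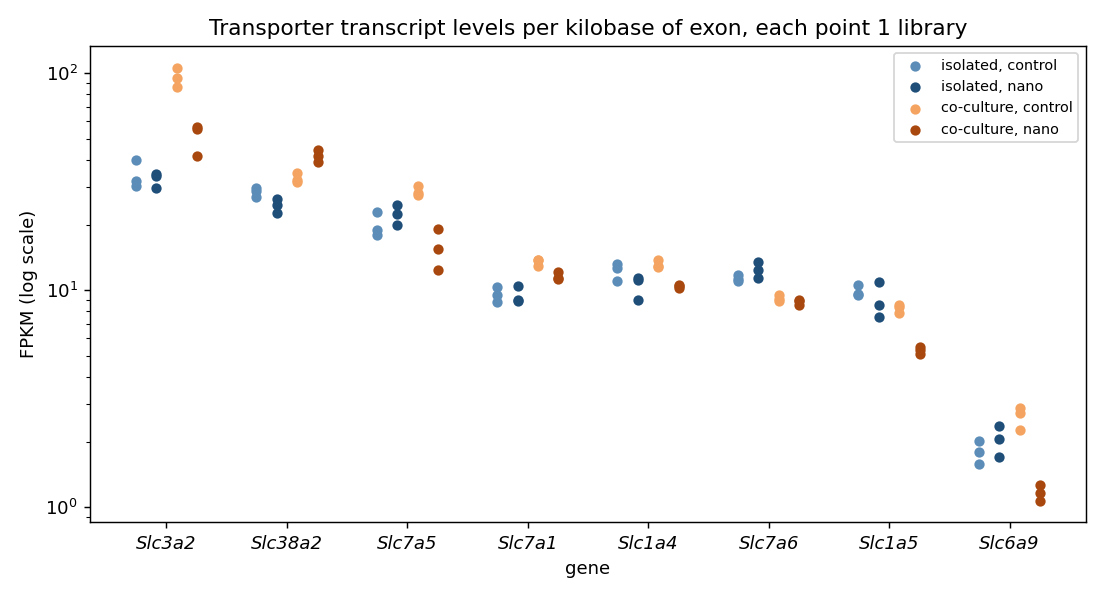
Transcript level per kilobase of exon (FPKM, logarithmic axis) of the 8 tested transporters, each point 1 library, coloured by group. Slc3a2 leads in every group, Slc38a2 overlaps it in co-culture on nanotopography, and Slc6a9 lies lowest of the 8.

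In co-culture on control titanium, 4 of the 8 tested transporters were called higher and 1 lower at an adjusted p below 0.05, where 19.7% of the 13340 tested genes were called in either direction, 10.9% higher and 8.72% lower. Those higher were Slc3a2, Slc7a1, Slc7a5 and Slc6a9, and the lower one was Slc7a6. The median log2 fold change over the 8 was 0.35, against -0.02 over all tested genes, and after GC adjustment 5 were higher and 1 lower, beside 26.9% of all tested genes in either direction, with a median of 0.30. In 7 of the 8 the 3 co-culture libraries did not overlap the 3 isolated ones in CPM, where 36.1% of tested genes did not. In co-culture on nanotopography 3 were called higher and 4 lower, where 59.2% of all tested genes were called, 28.7% higher and 30.4% lower. After GC adjustment 5 were higher and 1 lower, where 39.6% of all tested genes were called, 18.7% higher and 20.8% lower. The libraries did not overlap in 7 of the 8, and in 64.4% of tested genes, so these counts lie nearer the background than those on control titanium. The median over the 8 was -0.25, and 0.23 after adjustment. The comparisons on the 2 surfaces use different libraries.

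**Figure D2:**
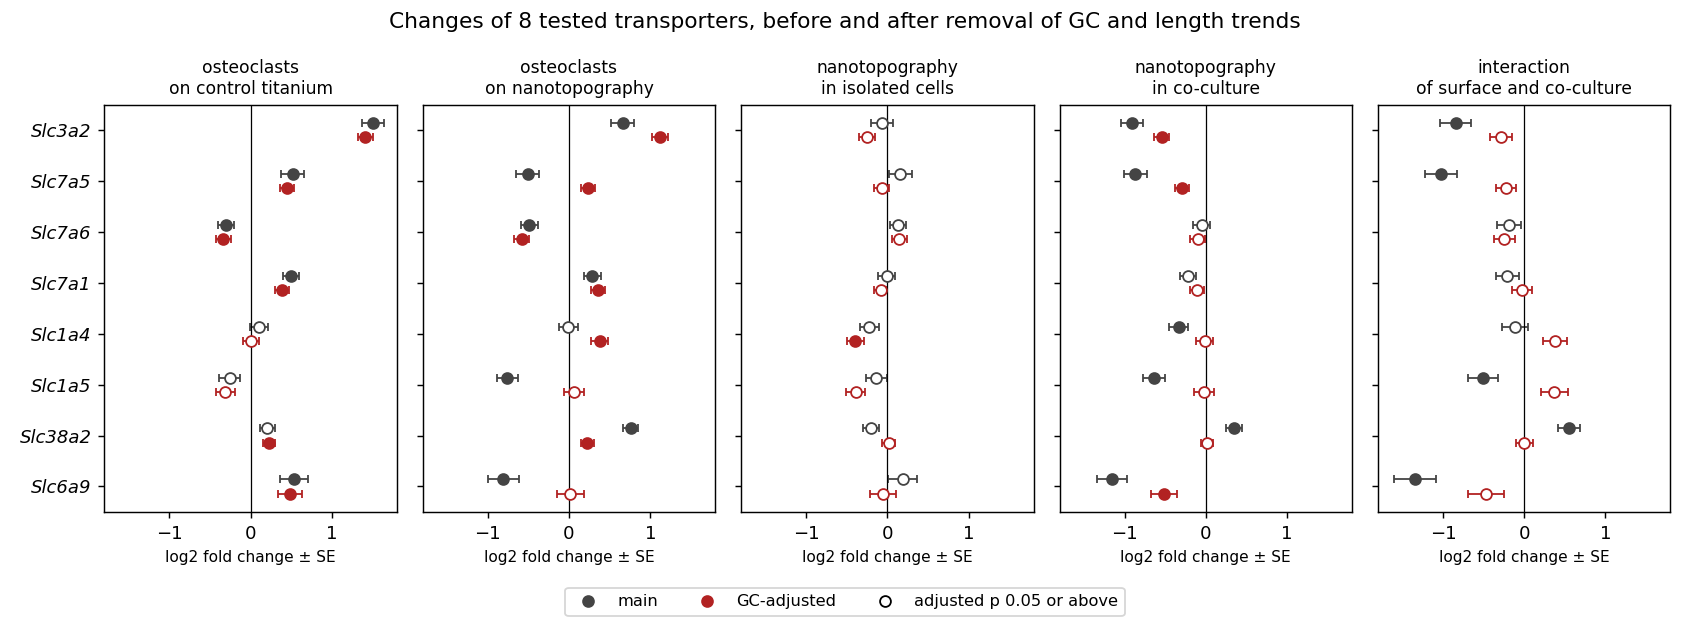
Log2 fold change with its standard error of the 8 tested transporters in the 5 comparisons, black as fitted and red with GC content and transcript length trends removed; open circles have an adjusted p of 0.05 or above. On control titanium the black and red points lie close together, while in both comparisons with the co-culture nanotopography libraries and in the interaction Slc7a5, Slc1a5, Slc38a2 and Slc6a9 move toward or past 0 after adjustment.

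The heavy chain Slc3a2 (ENSMUSG00000010095, chr19:8706882-8723369, mm10) showed the largest rise among the 8 in co-culture on control titanium. It measured 113, 106 and 141 CPM in isolated control libraries 1, 2 and 3, and 337, 374 and 306 CPM in co-culture control libraries. On nanotopography it measured 119, 104 and 121 CPM in isolated and 147, 200 and 195 CPM in co-cultured cells. All co-culture libraries were thus above all isolated ones, and the 3 co-culture control libraries lay above every other library. The rise was 2.83-fold on control titanium (log2 1.50 ± 0.14 SE, adjusted p = 1.04e-06) and 1.58-fold on nanotopography (log2 0.66 ± 0.14, adjusted p = 0.000543), and GC-adjusted log2 values were 1.41 and 1.12 (adjusted p = 3.89e-09 and 4.53e-08). With each library left out in turn the 2 log2 values ranged from 1.42 to 1.65 and from 0.60 to 0.78 and both remained called. The surface was not called for Slc3a2 in isolated cells (log2 -0.07 ± 0.14, adjusted p = 0.777, and -0.25 after GC adjustment, adjusted p = 0.14), and nanotopography lowered it in co-culture by a log2 value of -0.91 ± 0.13 (adjusted p = 0.00013), or -0.54 after GC adjustment (adjusted p = 0.000799). The difference between the 2 co-culture effects was -0.84 ± 0.19 (interaction, adjusted p = 0.00206), and -0.29 after GC adjustment (adjusted p = 0.138), so a smaller rise on nanotopography was called before the adjustment and not after it.

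Slc7a5 (ENSMUSG00000040010, chr8:121881150-121907694) encodes LAT1, the light chain that imports leucine and other large neutral amino acids in exchange for glutamine. It measured 66.9, 70.6 and 84.9 CPM in isolated control and 101, 112 and 104 CPM in co-culture control libraries. On the nanotopography surface it stood at 91.1, 73.8 and 83.0 CPM in isolated and 46.0, 70.8 and 57.2 CPM in co-cultured cells. Co-culture libraries were the higher ones on control titanium and the lower ones on nanotopography, with no overlap on either. The log2 fold change was 0.52 ± 0.14 (SE, adjusted p = 0.0149) on control titanium, 1.43-fold, and -0.51 ± 0.14 (adjusted p = 0.0054) on nanotopography. GC adjustment gave 0.45 (adjusted p = 0.000627) and 0.23 (adjusted p = 0.0437), so the direction on nanotopography reversed. With the replicate block as well, that reversed value of 0.23 was not called (adjusted p = 0.0624). The call on control titanium was lost without co-culture control replicate 2 (adjusted p = 0.0598), isolated control replicate 1 (0.0712) or isolated control replicate 2 (0.072). In co-culture the surface comparison gave -0.87 ± 0.14 (adjusted p = 0.000281), and -0.29 after adjustment (adjusted p = 0.0262). The interaction was -1.02 ± 0.20 (adjusted p = 0.000759), and -0.22 after adjustment (adjusted p = 0.22). Slc7a5 overlaps the gene span of Gm20388 in the annotation, and exons were not compared. Whether the counting used strand is not given in the sources used here, so whether reads of the 2 genes mixed was not tested.

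Slc7a6 (ENSMUSG00000031904, chr8:106168857-106198706) encodes y+LAT2, the light chain that exports arginine in exchange for glutamine and sodium. It went the other way from its heavy chain, with 51.7, 50.1 and 53.5 CPM in isolated control and 40.7, 41.7 and 43.4 CPM in co-culture control libraries. With nanotopography the values were 61.5, 52.0 and 56.9 CPM in isolated and 41.3, 40.9 and 39.0 CPM in co-cultured cells, so every co-culture library lay below every isolated one. The log2 fold change was -0.30 ± 0.10 (SE, adjusted p = 0.0446) on control titanium and -0.49 ± 0.10 (adjusted p = 0.000643) on nanotopography, and GC-adjusted values were -0.34 and -0.58 (adjusted p = 0.0102 and 6.04e-05). The first call sat at the threshold and was lost when any 1 of the 6 libraries compared was left out: adjusted p was 0.147, 0.132 and 0.0778 without co-culture control replicate 1, 2 or 3, and 0.121, 0.0972 and 0.114 without isolated control replicate 1, 2 or 3. With the replicate number as a block it was 0.0607. The call on nanotopography held without each library in turn (adjusted p from 0.000611 to 0.00567). Nanotopography was not called for Slc7a6 in isolated cells (log2 0.13, adjusted p = 0.393) or in co-culture (-0.05, adjusted p = 0.707), nor after GC adjustment (0.15 and -0.10, adjusted p = 0.37 and 0.491).

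**Figure D3:**
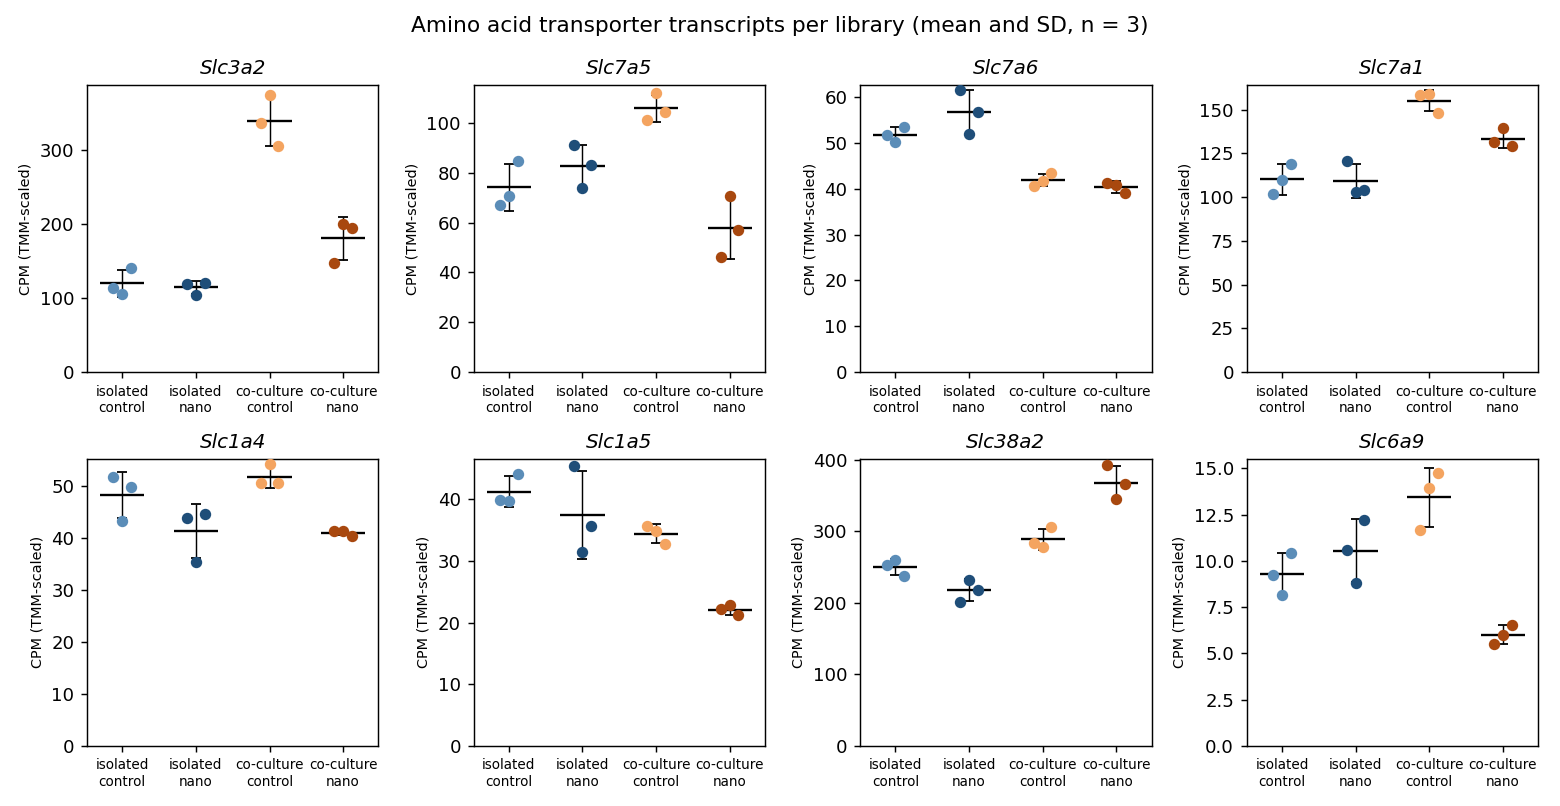
CPM of the 8 tested transporters in each of the 12 libraries, with the group mean (bar) and SD (whiskers, n = 3), by group on axes that start at 0. The co-culture control libraries stand above all others for Slc3a2, both co-culture groups stand below both isolated groups for Slc7a6, and the co-culture nanotopography libraries are the lowest for Slc1a5 and Slc6a9 and the highest for Slc38a2.

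Since Slc3a2 needs a light chain to carry amino acids, its FPKM was set against the summed FPKM of 6 light chains, as a description with no test. The ratio was 1.07, 0.976 and 1.14 in isolated control libraries (1.06 ± 0.081 SD, n = 3) and 0.873, 0.928 and 0.967 in isolated nanotopography libraries (0.923 ± 0.047). It was 2.58, 2.67 and 2.27 in co-culture control (2.51 ± 0.207) and 1.91, 2.00 and 2.26 in co-culture nanotopography libraries (2.05 ± 0.183). The co-culture libraries, at 1.91 and above, did not overlap the isolated ones, at 1.14 and below, while the 2 co-culture groups lay close, with 2.26 as the highest on nanotopography and 2.27 as the lowest on control titanium. Over Slc7a5 and Slc7a6 alone these 2 groups overlapped, with up to 2.31 on nanotopography and from 2.30 on control titanium. The ratio carries no GC adjustment. Slc7a5 made up 62.4 ± 2.62% of the light chain FPKM in isolated control, 63.3 ± 0.566% in isolated nanotopography, 74.5 ± 1.19% in co-culture control and 62.4 ± 5.27% in co-culture nanotopography libraries (SD, n = 3), and Slc7a6 nearly all of the rest. Slc7a7 was at most 2.28% in a library, the cystine light chain Slc7a11 at most 1.07% and Slc7a8 at most 0.247%, and Slc7a10 was at 0 counts in all 12. These are transcript ratios, and protein was not measured.

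**Figure D4:**
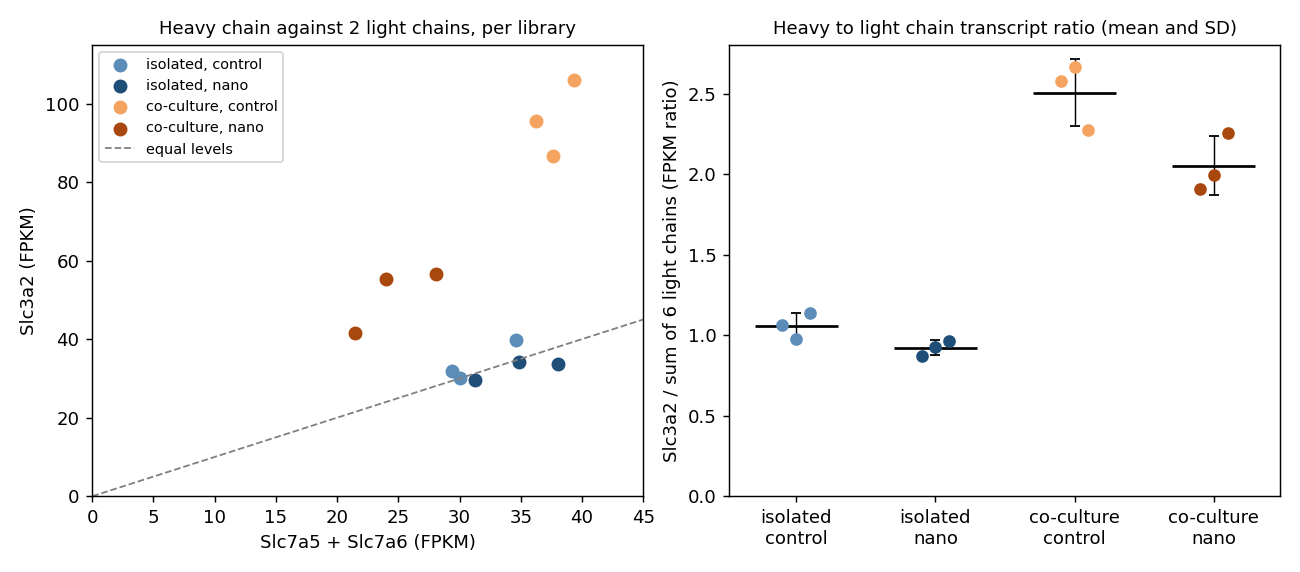
Left, Slc3a2 FPKM against the summed FPKM of Slc7a5 and Slc7a6 in each library, with a dashed line at equal levels. Right, the ratio of Slc3a2 to 6 light chains per library with the group mean and SD (n = 3): isolated libraries lie between 0.873 and 1.14, and co-culture libraries between 1.91 and 2.67.

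Slc7a1 (ENSMUSG00000041313, chr5:148327410-148399904) encodes CAT1, the carrier of arginine and lysine, which needs no heavy chain. It measured 102, 110 and 119 CPM in isolated control and 158, 159 and 148 CPM in co-culture control libraries. On nanotopography it measured 121, 103 and 104 CPM in isolated and 132, 139 and 129 CPM in co-cultured cells, so co-culture libraries were the higher ones on each surface, with no overlap. The log2 fold change was 0.50 ± 0.10 (SE, adjusted p = 0.00224) on control titanium and 0.29 ± 0.10 (adjusted p = 0.02) on nanotopography, and 0.39 and 0.36 after GC adjustment (adjusted p = 0.00206 and 0.00229). The call on nanotopography was lost without isolated nanotopography replicate 3 (log2 0.25, adjusted p = 0.0916) and with no low-count filter (0.28, adjusted p = 0.086). The interaction was not called before or after adjustment (-0.21 and -0.02, adjusted p = 0.238 and 0.912), nor was the surface in isolated cells (-0.01, adjusted p = 0.957, and -0.08 after adjustment, adjusted p = 0.62) or in co-culture (-0.22, adjusted p = 0.0873, and -0.11, adjusted p = 0.39). Over the 12 libraries the log2 CPM of Slc7a1 followed that of Slc3a2 with a Pearson r of 0.942, and 0.929 with GC trends removed, a description over libraries that share group, depth and GC shifts. Slc7a3, the related carrier CAT3 that is known mainly from brain, had 0 to 4 counts per library and 25 over all 12, and no difference was detectable at this depth.

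Slc1a4 and Slc1a5 encode ASCT1 and ASCT2, sodium-dependent exchangers of alanine, serine, cysteine and, for ASCT2, glutamine. Slc1a4 (ENSMUSG00000020142, chr11:20302180-20332713) measured 51.7, 43.3 and 49.7 CPM in isolated control, 43.9, 35.4 and 44.6 in isolated nanotopography, 50.5, 54.2 and 50.5 in co-culture control and 41.3, 41.3 and 40.4 in co-culture nanotopography libraries. It was not called in co-culture on either surface (log2 0.10 ± 0.11 and -0.01 ± 0.12 SE, adjusted p = 0.557 and 0.956), and the GC-adjusted value on nanotopography was 0.38 (adjusted p = 0.00739). In co-culture it was lower on nanotopography (log2 -0.34 ± 0.11, adjusted p = 0.027), with no overlap between the surfaces, and -0.02 after adjustment (adjusted p = 0.939). This call was also lost without co-culture control replicate 2 (adjusted p = 0.0901), co-culture nanotopography replicate 1 (0.0646) or co-culture nanotopography replicate 3 (0.0683), and with no low-count filter (0.0594). In isolated cells the surface difference was -0.22 (adjusted p = 0.204), and -0.39 after adjustment (adjusted p = 0.0357).

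Slc1a5 (ENSMUSG00000001918, chr7:16781340-16798274) measured 40.0, 39.7 and 44.1 CPM in isolated control and 35.7, 34.9 and 32.8 CPM in co-culture control libraries. With nanotopography it showed 45.4, 31.4 and 35.6 CPM in isolated and 22.2, 22.8 and 21.3 CPM in co-cultured cells. The co-culture nanotopography libraries were the lowest of all, with a spread of 3.64% of their mean against 19.1% in isolated cells on the same surface. Co-culture gave a log2 fold change of -0.26 ± 0.13 (SE, adjusted p = 0.168) on control titanium, which was not called, and -0.76 ± 0.13 (adjusted p = 0.000139) on nanotopography. On control titanium the libraries did not overlap, and the GC-adjusted value was -0.31 (adjusted p = 0.0544). With the replicate block as well it was -0.32 and called lower (adjusted p = 0.0265). After GC adjustment the value on nanotopography was 0.06 (adjusted p = 0.72), and the fall with nanotopography in co-culture went from -0.64 ± 0.13 (adjusted p = 0.00167) to -0.02 (adjusted p = 0.945). The interaction, -0.50 ± 0.18 (adjusted p = 0.0337), turned to 0.37 (adjusted p = 0.128) after adjustment. In isolated cells the surface gave -0.14 (adjusted p = 0.487), and -0.39 after adjustment (adjusted p = 0.0588). The call of the interaction was also lost with no low-count filter (adjusted p = 0.0718), without isolated nanotopography replicate 1 (adjusted p = 0.121), isolated control replicate 1 (0.0642) or 2 (0.0732), co-culture control replicate 1 (0.0673) or 2 (0.0648), and co-culture nanotopography replicate 1 (0.0519) or 3 (0.0732).

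Slc38a2 (ENSMUSG00000022462, chr15:96687392-96699730) encodes SNAT2, a sodium-coupled carrier of proline, alanine and glutamine whose transcript is known to rise when amino acids run short. It measured 252, 260 and 238 CPM in isolated control and 283, 278 and 306 CPM in co-culture control libraries. On nanotopography it measured 202, 232 and 218 CPM in isolated and 392, 345 and 366 CPM in co-cultured cells, which were the highest of the 12 libraries. On control titanium the log2 fold change of 0.21 ± 0.10 (SE, adjusted p = 0.14) was not called, although the libraries did not overlap, and the GC-adjusted 0.22 was (adjusted p = 0.035). On nanotopography it was 0.76 ± 0.10 (adjusted p = 6.21e-06), or 0.23 after adjustment (adjusted p = 0.0236). The adjusted rises on the 2 surfaces were thus 0.22 and 0.23, with an interaction of 0.00 (adjusted p = 0.989) where the unadjusted one was 0.55 ± 0.14 (adjusted p = 0.0036). The surface comparison in co-culture went from 0.35 ± 0.10 (adjusted p = 0.00915) to 0.02 (adjusted p = 0.899). Slc38a2 has the lowest GC content of the 8 tested transporters, 44.7%, and Slc7a5 (56.3%), Slc1a5 (56.7%) and Slc6a9 (57.0%), whose falls in co-culture on nanotopography turned to values above 0 on adjustment, have the 3 highest.

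Slc38a1 encodes SNAT1, a related sodium-coupled carrier best known for glutamine in neurons, and lies 44478 bases from Slc38a2 on the same chromosome (chr15:96571418-96642913). Its counts were 2, 0 and 0 in isolated control, 5, 3 and 0 in isolated nanotopography and 3, 1 and 2 in co-culture control libraries, and 8, 12 and 15 in co-culture nanotopography libraries. The last group lay above all other libraries, at no more than 0.132 FPKM, beside 39.1 FPKM or more for Slc38a2. It did not pass the low-count filter. With no filter, an alternative over 26100 genes, its log2 difference between the surfaces in co-culture was 2.57 (adjusted p = 0.00181) and between co-culture and isolated cells on nanotopography 1.88 (adjusted p = 0.018), and on control titanium it was 1.35 (adjusted p = 0.571). These values have no GC adjustment. The part of the macrophage markers in these counts, which were highest in the same libraries, was not tested.

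Slc6a9 (ENSMUSG00000028542, chr4:117834506-117875198) encodes GLYT1, the sodium- and chloride-coupled carrier of glycine. It had 39 to 108 counts per library and measured 9.24, 8.14 and 10.4 CPM in isolated control and 11.7, 13.9 and 14.7 CPM in co-culture control libraries. With nanotopography it stood at 10.6, 8.81 and 12.2 CPM in isolated and 5.52, 5.97 and 6.53 CPM in co-cultured cells, the lowest of the 12 libraries. The co-culture libraries were again above the isolated ones on control titanium (log2 0.54 ± 0.17 SE, adjusted p = 0.0352) and below them on nanotopography (-0.81 ± 0.19, adjusted p = 0.00156), with no overlap. GC adjustment gave 0.48 (adjusted p = 0.0205) and 0.02 (adjusted p = 0.97). Leaving out co-culture control replicate 2 (adjusted p = 0.0924) or 3 (0.0938), or isolated control replicate 1 (0.095) or 2 (0.16), ended the call on control titanium, as did DESeq2 (0.0512) and testing with no low-count filter (0.0747). In co-culture nanotopography lowered Slc6a9 by a log2 value of -1.16 ± 0.18 (adjusted p = 0.000219), and -0.52 after adjustment (adjusted p = 0.0299), and the interaction went from -1.35 ± 0.26 (adjusted p = 0.000685) to -0.47 (adjusted p = 0.146). The gene spans of B4galt2, Ccdc24 and Gm17114 overlap that of Slc6a9 in the annotation. Exons were not compared and the strand is not stated, so whether their reads mixed with its own was not tested.

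In isolated cells 0 of the 8 tested transporters were called between the surfaces by edgeR's quasi-likelihood test, where 9.71% of all tested genes were called, 4.32% higher and 5.39% lower, and DESeq2 also called 0. The median was -0.04, against 0.01 over all genes, and only Slc38a2, at 252, 260 and 238 against 202, 232 and 218 CPM, showed no overlap between the surfaces (log2 -0.20, unadjusted p = 0.0492 and adjusted p = 0.167), where 29.9% of tested genes did not overlap. It was the 1 transporter of the 8 with an unadjusted p under 0.05, and its GC-adjusted value was 0.01 (adjusted p = 0.942). After GC adjustment 1 was lower, Slc1a4, where 5.25% of all genes were called, 3.37% higher and 1.87% lower, and 3 of the 8, Slc1a4, Slc1a5 and Slc3a2, had an unadjusted p under 0.05. In co-culture, 1 transporter was called higher on nanotopography and 5 lower, where 42.0% of all tested genes were called, 18.6% higher and 23.3% lower, with a median of -0.49. The libraries of the 2 surfaces did not overlap in 7 of the 8, and in 53.4% of tested genes. Left after adjustment were 3 lower (Slc3a2, Slc7a5 and Slc6a9) and 5 not called, beside 7.42% of all genes higher and 10.5% lower, with a median of -0.10. The interaction was called for 5 of the 8, 1 above 0 and 4 below, beside 47.8% of all genes, 22.4% above and 25.4% below, and for 0 after adjustment, beside 20.5% of all genes, 8.28% above and 12.2% below. In that adjusted edgeR fit 3 of the 8 had an unadjusted p under 0.05, Slc3a2 below 0 and Slc1a4 and Slc1a5 above it. These surface comparisons and those of co-culture share libraries.

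Among 46 other plasma membrane and lysosomal amino acid transporters, 18 were tested. In co-culture on control titanium 4 were higher, 1 was lower and 13 were not called, with a median of 0.09, where 10.9% of all tested genes were higher and 8.72% lower. After GC adjustment 4 were higher and 4 lower, beside 14.5% and 12.4% of all genes. Those called with the smallest p were Slc15a4, a lysosomal histidine and peptide carrier (log2 0.90 ± 0.14 SE, adjusted p = 0.000202), Slc38a7, a lysosomal glutamine exporter (1.04 ± 0.20, adjusted p = 0.00127), Ctns, the lysosomal cystine exporter (0.83 ± 0.16, adjusted p = 0.00194) and Slc6a6, the taurine carrier (0.42 ± 0.10, adjusted p = 0.00631). Other lysosomal carriers of the list, chosen for naming after their values were seen, were not called there, with log2 values of -0.28 for Slc36a1 (adjusted p = 0.152) and -0.31 for Slc38a9 (adjusted p = 0.249). On nanotopography 8 were higher and 3 lower with a median of 0.26, a share called near the 59.2% of all tested genes, and 6 higher and 3 lower after adjustment with a median of 0.09, beside 39.6% of all genes called. Ctns rose there too (0.89 ± 0.17, adjusted p = 0.000316, and 0.97 after adjustment), Slc7a2, a cationic amino acid carrier of the same family as Slc7a1, rose (1.19 ± 0.15, adjusted p = 5.6e-06, and 0.53 after adjustment, adjusted p = 0.000424), and Slc38a10 fell (-1.72 ± 0.13, adjusted p = 4.12e-08, and -0.90 after adjustment, adjusted p = 2.75e-08).

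The 24 tested of 26 enzymes of amino acid synthesis and interconversion were counted beside the transporters. On control titanium 5 were higher in co-culture, 2 lower and 17 not called, with a median of 0.14, where 19.7% of all tested genes were called. The former included Got1, the cytosolic aspartate aminotransferase (0.92 ± 0.15 SE, adjusted p = 0.000372), Ass1 and Asl, which make arginine from citrulline (1.21 ± 0.23 and 0.93 ± 0.20, adjusted p = 0.00156 and 0.00323), and Asns, the asparagine synthetase (0.71 ± 0.16, adjusted p = 0.00407). On nanotopography 1 was higher and 11 lower with a median of -0.50, and 1 higher and 12 lower after adjustment with a median of -0.25. Of all tested genes, 59.2% were called as fitted, 30.4% lower, and 39.6% after adjustment, 20.8% lower, so the number of enzymes called was no larger than the background as fitted. Pycr1 and Aldh18a1 of proline synthesis were -1.47 ± 0.16 and -1.02 ± 0.14 (adjusted p = 9.91e-07 and 1.32e-05) and -0.96 and -0.53 after adjustment (adjusted p = 2.96e-06 and 9.65e-05). Shmt2, the mitochondrial serine and glycine enzyme, was -1.18 ± 0.15 (adjusted p = 5.2e-06) and -0.29 after adjustment (adjusted p = 0.0204), and Bcat1, the branched-chain aminotransferase, -0.67 ± 0.09 (adjusted p = 1.05e-05) and -1.03 (adjusted p = 1.6e-08). Pycr1 and Bcat1 were lower on control titanium too, with means of 55.7 and 128 CPM in isolated and 35.9 and 102 in co-cultured cells. Aldh18a1 and Shmt2 were not, at 175 and 60.7 CPM in isolated and 186 and 81.3 in co-cultured cells. The interaction was called for 1 enzyme above 0 and 13 below, beside 25.4% of all genes below, and after adjustment for 8 below, with 16 not called (median -0.42), beside 12.2%, among the 8 Shmt2 (-0.70, adjusted p = 0.00133) and Aldh18a1 (-0.53, adjusted p = 0.00639).

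All 17 genes of the ATF4 axis were tested, and 9 were higher and 1 lower in co-culture on control titanium with a median of 0.29, and 10 higher and 3 lower on nanotopography with a median of 0.42, or 12 and 2 after adjustment with a median of 0.80. Over all tested genes, 19.7% were called on control titanium, 59.2% on nanotopography and 39.6% there after adjustment, with medians of -0.02, 0.00 and 0.00. Ddit3, which encodes the stress factor CHOP, rose by 2.10 ± 0.12 and 2.64 ± 0.12 (SE, adjusted p = 4.31e-09 and 1.18e-10), Atf3 by 2.57 ± 0.22 and 2.79 ± 0.25 (adjusted p = 4.84e-07 and 1.88e-07) and the ATF4 target Trib3 by 1.73 ± 0.16 and 1.89 ± 0.18 (adjusted p = 1.35e-06 and 3.54e-07) on control titanium and nanotopography. The GC-adjusted values on nanotopography were 2.48 for Ddit3, 3.16 for Atf3 and 2.88 for Trib3. Atf4 itself was 0.92 ± 0.12 (adjusted p = 5.22e-06) on nanotopography and 1.64 after adjustment (adjusted p = 2.06e-08). Its mean was 212 CPM in isolated control and 326 in co-culture control libraries, so it was higher in co-culture there too. On nanotopography the means were 152 CPM in isolated and 288 in co-cultured cells. In isolated cells nanotopography lowered 6 of the 17, with 11 not called, beside 9.71% of all tested genes called and 5.39% lower, including Trib3 (-0.89 ± 0.19, adjusted p = 0.0185, and -1.14 after adjustment, adjusted p = 0.0016) and Chac1, which degrades glutathione (-0.97 ± 0.19, adjusted p = 0.0149, and -1.23, adjusted p = 0.0016), while 0 of the 8 transporters were called there. The list was drawn up with earlier results of these libraries known, so its counts are a description.

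Of 32 genes of amino acid sensing by the growth kinase mTORC1, 29 were tested, and 6 were higher and 2 lower in co-culture on control titanium with a median of 0.10, beside 19.7% of all tested genes called. On nanotopography 11 were higher and 11 lower (median -0.16), beside 59.2%, and 12 and 2 after adjustment (median 0.10), beside 39.6%. Fnip1 and Sec13, chosen for naming after their values were seen, went opposite ways there in CPM, which carries no GC adjustment. Fnip1 had means of 71.5 CPM in isolated and 319 CPM in co-cultured cells, and Sec13 254 and 106 CPM. Rragc, a Rag GTPase that recruits mTORC1 to the lysosome, was 0.72 ± 0.10 and 0.95 ± 0.10 (SE, adjusted p = 8.44e-05 and 9.2e-07), and Fnip2, a folliculin partner that acts on it, 1.11 ± 0.14 and 1.38 ± 0.14 (adjusted p = 3.94e-05 and 7.53e-07) on control titanium and nanotopography, with GC-adjusted values of 0.71 and 0.79 for Rragc and 1.04 and 1.24 for Fnip2. Of 8 genes of the MYC family, 6 were tested. In co-culture on control titanium 1 of them was higher and 2 lower, beside 19.7% of all tested genes called. On nanotopography 1 was higher and 4 lower, beside 59.2%, and after adjustment 2 and 3, beside 39.6%. Myc, whose product is known to drive Slc7a5, Slc1a5 and Slc3a2 in tumour cells, was -0.61 ± 0.13 (adjusted p = 0.00378) on control titanium and -1.52 ± 0.14 (adjusted p = 1.85e-07) on nanotopography, and -0.70 and -1.04 after adjustment (adjusted p = 0.000436 and 4.6e-06). On nanotopography as fitted, Slc7a5 (-0.51) and Slc1a5 (-0.76) were lower and Slc3a2 (0.66) higher. After adjustment they were 0.23, 0.06 and 1.12. On control titanium, where Myc was also lower, Slc7a5 (0.52) and Slc3a2 (1.50) were higher, and Slc1a5 (-0.26) was not called. The part of Myc in these values was not tested.

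**Figure D5:**
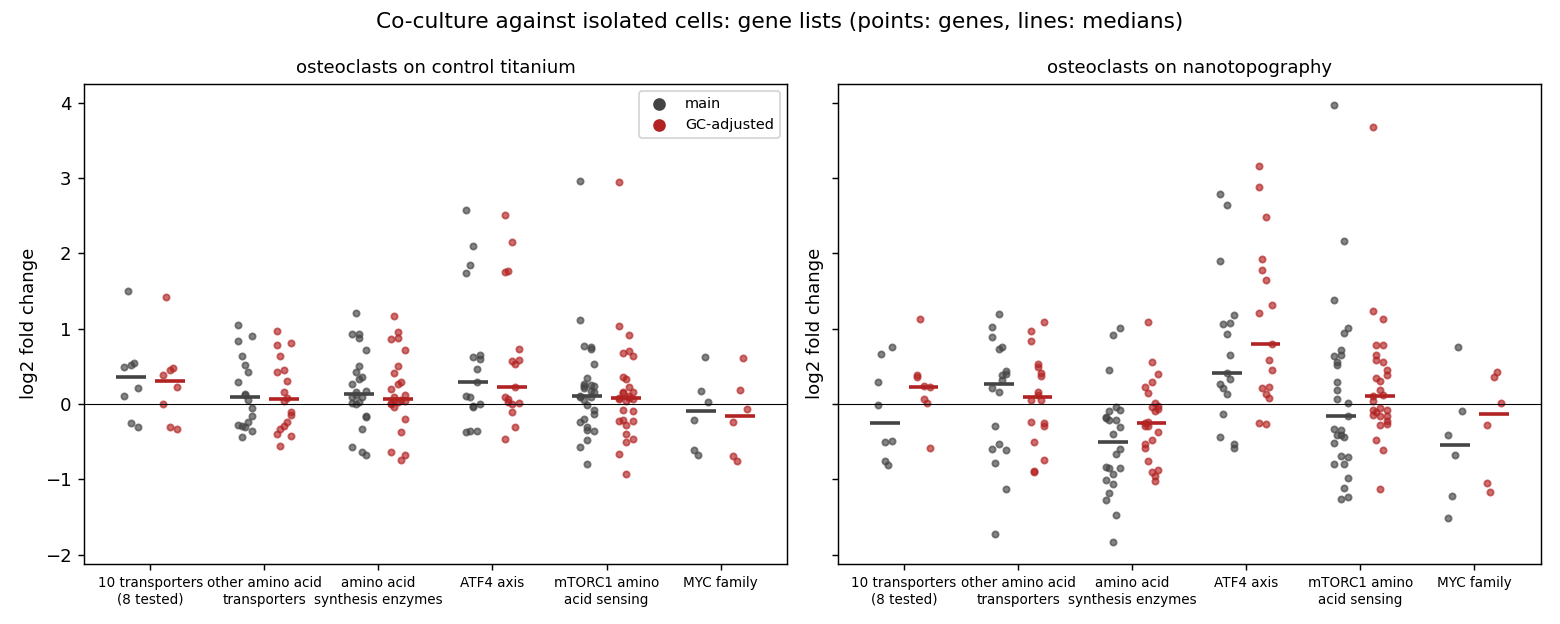
Log2 fold change of each tested gene of 6 lists in co-culture against isolated cells, on control titanium (left) and nanotopography (right), black as fitted and red after GC adjustment, with lines at the list medians. The transporter median moves from -0.25 to 0.23 on nanotopography after adjustment, while the median of the ATF4 axis is above 0 and that of the synthesis enzymes on nanotopography below 0 in both fits.

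Of 9371 protein-coding genes with a mean of at least 5 CPM, those whose log2 CPM followed Slc3a2 most closely over the 12 libraries were Nr1d1, which encodes the clock repressor REV-ERBα (Pearson r 0.988, and 0.983 with GC trends removed), Hdac7 (0.979 and 0.822), Smurf1 (0.977 and 0.914), Nfe2l1 (0.976 and 0.926) and Slc2a1, the glucose carrier GLUT1 (0.976 and 0.978). For Slc7a5 they were Pltp (0.981 and 0.953), Ecm1 (0.981 and 0.921), Pfkl (0.981 and 0.86), Ddah2 (0.979 and 0.949) and Tbc1d22a (0.979 and 0.93). On the scale with GC trends removed the closest genes were Fermt2 (0.989, and 0.82 before removal), Nr1d1, Nr4a1, Nampt and Tfrc for Slc3a2, of which Nr1d1 is in both lists, and Ghitm (0.971, and 0.028 before removal), Zyg11b, Seh1l, Vps11 and Tcp11l2 for Slc7a5, none of them in the first list. The heavy chain and its main light chain followed each other loosely before the GC trends were removed (Slc3a2 with Slc7a5, r 0.522) and closely after (0.922), while Slc3a2 with Slc7a6 gave -0.723 and -0.861. Slc7a5 and Slc6a9 gave 0.903 and 0.709, and Slc7a5 and Slc38a2 changed sign, from -0.507 to 0.62. These correlations describe 12 libraries that share groups, depth and base composition.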

How the data were processed

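Each library's deposited file holds raw read counts per gene, as the authors' counting left them. The mm10 build and the tools STAR 2.4, HTSeq, cutadapt, DESeq2 and FastQC 0.63 are named per the submitters' processing notes; what each did, the annotation and the use of strand are not given in the sources used here. The deposited gene lists end at different genes, so the 52654 genes complete in all 12 were used and 1621 left out; in every library the former took 99.924% of counts or more, with totals of 5866842 to 9207831.

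Tests ran in edgeR 4.0.16 (R 4.3.3, limma 3.58.1) on the 13340 genes left by its low-count filter, with TMM scaling, 4 group means and quasi-likelihood tests of 5 contrasts, with Benjamini-Hochberg adjustment over all tested genes and calls below 0.05. The biological coefficient of variation was 12.3% (common dispersion 0.0151). FPKM values were computed from TMM-scaled CPM and exon union length in GENCODE M21, and log2 CPM used a prior count of 2. GC-adjusted values come from the same test with each library's loess trend (span 0.3) with GC content and transcript length taken out as offsets. Other alternatives were RLE scaling, 2 other filters, DESeq2 1.42.0, a replicate block, only the groups compared, and leaving out each library; longest-transcript lengths and left-out libraries for the chain ratio were added after the data were seen. The scripts were tested on simulated data.

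The 10 transporters and the other gene lists were chosen with earlier results of these data known. Named genes are all 10 transporters, up to 4 called genes with the smallest p per other list and comparison, and the 5 genes of highest correlation with Slc3a2 and Slc7a5. Replicates within a group correlated but none were identical. Promoters are from RefSeq (GRCm38.p6) and matched 6 of the 10 transporters by symbol.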

Additional observations from a re-analysis of the deposited data

Results flagged for a closer look

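The co-culture effect on nanotopography differed from that on control titanium, by the interaction term of edgeR's quasi-likelihood test, for 5 of the 8 tested transporters. Of all tested genes, 47.8% were called for this interaction, and 20.5% with the GC and length trends removed. On the log2 scale the difference was -1.02 for Slc7a5 (adjusted p = 0.000759), -0.84 for Slc3a2 (adjusted p = 0.00206), -0.50 for Slc1a5 (adjusted p = 0.0337), 0.55 for Slc38a2 (adjusted p = 0.0036) and -1.35 for Slc6a9 (adjusted p = 0.000685). With the GC and length trends removed the same differences were -0.22, -0.29, 0.37, 0.00 and -0.47, and none of the 5 was called (adjusted p from 0.128 for Slc1a5 to 0.989 for Slc38a2). Over all tested genes the interaction had a median of 1.25 under 40% GC and -1.19 over 60% GC.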

How the results depend on the processing

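With the GC and length trends removed, calls over all genes were 2386 for nanotopography in co-culture, 700 in isolated cells and 2738 for the interaction (5599, 1295 and 6383 as fitted). In the same order, with the replicate block as well, they were 2115, 463 and 2467, and 5072 (from 7892) for co-culture on nanotopography. Transporters called became 5 higher and 1 lower, or 4 and 1 with the block, in co-culture on nanotopography; 0 higher and 3 lower for nanotopography in co-culture under both; 1 lower, or 2 with the block, in isolated cells; and 0 higher and 0 lower for the interaction under both. With that block, 2 were lower in co-culture on control titanium, Slc7a6 and Slc1a5. In co-culture on nanotopography values reversed to 0.23 for Slc7a5, 0.38 for Slc1a4, 0.06 (0.07 with the block) for Slc1a5 and 0.02 for Slc6a9. In isolated cells they reversed to -0.07 for Slc7a5, 0.01 for Slc38a2 and -0.05 (-0.06 with the block) for Slc6a9, and for the interaction to 0.38 for Slc1a4 and 0.37 (0.39 with the block) for Slc1a5. Log2 values given once are the same with and without the block, but Slc7a5 in co-culture on nanotopography was not called with it (adjusted p = 0.0624).

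The single lower transporter on control titanium, Slc7a6, became 0 with no filter, with a filter of 1 CPM in 3 libraries, with DESeq2, with only the groups compared and with the replicate block (adjusted p = 0.0607). The cause was not tested. The block changed no other of the 40 transporter calls; same-numbered libraries deviated together over 0.1 in 1, 0, 2 and 2 of 3 pairs in the 4 comparisons of groups, so the numbers are not taken as pairs. Both filters made 2 transporters higher for nanotopography in co-culture, the second being Slc38a1. Slc38a1 reached 1 CPM only in the co-culture nanotopography libraries. The CPM filter thus let it in through the group where it is highest, and its call under that filter is no separate support. No filter gave 2100 calls in isolated cells and ended 5 transporter calls. RLE scaling and DESeq2 moved Slc1a4 in co-culture on nanotopography and Slc7a1 for nanotopography in isolated cells to 0.00. Longest-transcript lengths gave chain ratios of 1.19, 1.04, 2.86 and 2.30 in isolated control, isolated nanotopography, co-culture control and co-culture nanotopography libraries.

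With 1 library left out, calls in co-culture on control titanium ran from 1436 to 2976, with 2 to 4 transporters higher and 0 lower, and were 1629 without co-culture control replicate 2, 1483 and 1436 without isolated control replicates 1 and 2. For nanotopography in isolated cells they ran from 3 to 2877: 3 without isolated control replicate 1 or 2 or isolated nanotopography replicate 3, 65 without isolated nanotopography replicate 1, 2145 without isolated control replicate 3 and 2877 without isolated nanotopography replicate 2. In co-culture the surface gave 3274 (without co-culture nanotopography replicate 1) to 5818, with 1 to 2 transporters higher. The second was again Slc38a1, since of the transporters tested in the main fit only Slc38a2 lay above 0 there. Slc38a1 enters through the group where it is highest, so it is no separate support. Values ran from -0.09 to 0.04 for Slc1a4 in co-culture on nanotopography, and for nanotopography in isolated cells from -0.08 to 0.04 for Slc7a1 and from -0.14 to 0.06 for Slc3a2. Slc7a3 and Slc38a1 are limited by depth, with 25 and 51 counts over all libraries.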
